A study of Mus musculus with 2 samples.

Results

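Type I interferon-stimulated genes are the genes that cells switch on when interferon alpha or beta binds its receptor. The 41 genes described here were taken by gene symbol from the 31253 genes of a single-cell RNA-seq study of mouse spleen, and all 41 were listed and had reads in T cells. The receptor activates the kinases Jak1 and Tyk2, which phosphorylate Stat2 and other signal transducers. A complex that contains Stat2 and Irf9 then binds the interferon-stimulated response element in promoters. The products include sensors of foreign nucleic acid, proteins that block viral translation and replication, the ubiquitin-like protein Isg15, and Irf7, which amplifies interferon production itself. T cells in an uninfected spleen keep a low tonic level of these transcripts.

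Regulatory T cells (Treg), the Foxp3-expressing CD4+ cells that restrain immune responses, had been sorted from spleen as CD4+FoxP3+ cells. The Foxp3YFP-CreKmt2dfl/fl library (fl/fl below) pooled Treg from 3 mice in which Cre recombinase, expressed with YFP from the Foxp3 locus, can delete floxed Kmt2d, a histone H3 lysine methyltransferase that acts at enhancers. The Foxp3YFP-CreKmt2d+/+ library (+/+ below) pooled cells from 3 mice that carry the same Foxp3-driven YFP-Cre and wild-type Kmt2d. Age, sex and treatment of the mice are not given in the sources used here. There was 1 library per genotype, so no difference between them has a replicate check and no test was made. Values are unique molecular identifier (UMI) counts, each marking the 3' end of 1 captured transcript, summed over the cells of a gate and scaled to the UMI total of that gate (CPM). They are not divided by transcript length, since each transcript gives 1 tag. The log2 ratios are fl/fl over +/+ with a 95% interval that covers counting error only, and likewise for the other intervals. A gene was measured in a comparison at 10 CPM or more in either side. It was called higher or lower when the CPM differed at least 1.5-fold and the interval excluded equality, which is a rule of size and not a test.

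The fl/fl library held 8441 single cells with a median of 6036 UMIs before gating, and the +/+ library 7653 with a median of 5573. The libraries shared 15 barcodes. Despite the sort, a Treg gate (T cell markers, no Cd8, and Foxp3 or at least 3 UMIs of Ikzf2, which encodes Helios) took 3563 cells of the fl/fl library (42.2%) and 3697 cells of the +/+ library (48.3%). The libraries also held cells gated as conventional CD4, with Cd4 but no UMI of Foxp3, Ikzf2 or Cd8 (729 and 760 cells). Further gates took CD8 cells (365 and 268), B cells (1123 and 449), neutrophils (64 and 112) and monocytes, macrophages or dendritic cells (173 and 221). Of the fl/fl Treg gate 71.6% were in a central state (more UMIs of central markers such as Ccr7, Lef1 and Tcf7 than of effector markers), 18.4% effector and 8.14% cycling, against 53.3%, 37.2% and 4.25% of the +/+ Treg gate. Within 1 UMI of the cut between central and effector lay 257 fl/fl and 587 +/+ cells. Markers of the cut differed between the libraries within a state, in both directions. In central Treg Lef1 had 767 CPM in fl/fl and 549 CPM in +/+, and Tcf7 188 and 289 CPM. In effector Treg Ccr2 had 110 and 27.8 CPM, and S100a4 346 and 544 CPM. A state need thus not hold the same kind of cell in both libraries, and the part of this in the values by state was not tested. Foxp3 was sparse at 28.3 CPM in the fl/fl Treg gate and 42.3 CPM in the +/+ Treg gate, while Ikzf2 stood at 2202 and 2298 CPM. A Treg cell with neither transcript captured can fall in the conventional CD4 gate, and how many did was not tested. Kmt2d itself had 67.8 CPM in fl/fl Treg and 71.1 CPM in +/+ Treg. Reads from the 3' end check a deletion only if they lie in the floxed exons, whose place is not given in the sources used here, so the level checks nothing. Hemoglobin transcripts summed to 32.8 CPM in the fl/fl Treg gate and 1.73 CPM in the +/+ Treg gate, B cell markers to 5.70 and 12.0 CPM, and S100a8 with S100a9 to 8.29 and 20.6 CPM. Their part in the results below was not tested.

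The promoters of 6 genes are shown because of the part of these genes in the results below. Rsad2 and Isg15 mark interferon-high cells, and Ifit1 is among the genes that define those cells. Slfn5, Slfn1 and Ifi44 are among the 5 genes called between the Treg libraries. The promoter windows run from 250 bases before to 50 bases after the RefSeq transcription start (build GRCm38.p6), 5' to 3' on the gene's strand. Capitals mark the core letters of the interferon-stimulated response element, GAAANNGAAA or, on the other strand, TTTCNNTTTC. The windows are Rsad2 chr12:26456403-26456702 (minus strand), Isg15 chr4:156200769-156201068 (minus), Ifit1 chr19:34640639-34640938 (plus), Slfn5 chr11:82951852-82952151 (plus), Slfn1 chr11:83116570-83116869 (plus) and Ifi44 chr3:151749861-151750160 (minus).
Rsad2: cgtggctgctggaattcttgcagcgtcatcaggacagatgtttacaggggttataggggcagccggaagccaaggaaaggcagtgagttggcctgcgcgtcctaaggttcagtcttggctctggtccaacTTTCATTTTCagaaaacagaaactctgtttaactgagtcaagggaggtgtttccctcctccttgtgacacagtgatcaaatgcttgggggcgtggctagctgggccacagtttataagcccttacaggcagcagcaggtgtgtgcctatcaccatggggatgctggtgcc
Isg15: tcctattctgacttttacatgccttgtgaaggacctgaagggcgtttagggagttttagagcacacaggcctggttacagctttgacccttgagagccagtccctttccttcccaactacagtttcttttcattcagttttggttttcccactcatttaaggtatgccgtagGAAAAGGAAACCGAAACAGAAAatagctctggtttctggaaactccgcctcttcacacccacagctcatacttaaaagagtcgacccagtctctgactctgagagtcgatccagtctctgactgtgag
Ifit1: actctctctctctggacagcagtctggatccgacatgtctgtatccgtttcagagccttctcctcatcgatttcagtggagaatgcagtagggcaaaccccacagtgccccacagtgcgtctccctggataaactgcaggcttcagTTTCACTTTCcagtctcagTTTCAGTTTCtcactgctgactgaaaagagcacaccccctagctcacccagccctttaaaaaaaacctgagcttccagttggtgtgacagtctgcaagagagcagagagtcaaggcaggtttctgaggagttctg
Slfn5: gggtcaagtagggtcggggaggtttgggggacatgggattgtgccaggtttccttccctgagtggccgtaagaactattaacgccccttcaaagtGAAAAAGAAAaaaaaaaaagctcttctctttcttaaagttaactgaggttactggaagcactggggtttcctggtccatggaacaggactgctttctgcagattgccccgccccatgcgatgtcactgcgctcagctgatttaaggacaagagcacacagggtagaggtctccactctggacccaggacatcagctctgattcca
Slfn1: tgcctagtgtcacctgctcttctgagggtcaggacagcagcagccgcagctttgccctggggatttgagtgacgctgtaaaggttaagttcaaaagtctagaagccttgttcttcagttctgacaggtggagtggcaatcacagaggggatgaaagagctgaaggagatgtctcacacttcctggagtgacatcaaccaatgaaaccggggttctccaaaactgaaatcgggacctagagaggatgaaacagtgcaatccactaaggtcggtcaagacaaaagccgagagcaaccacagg
Ifi44: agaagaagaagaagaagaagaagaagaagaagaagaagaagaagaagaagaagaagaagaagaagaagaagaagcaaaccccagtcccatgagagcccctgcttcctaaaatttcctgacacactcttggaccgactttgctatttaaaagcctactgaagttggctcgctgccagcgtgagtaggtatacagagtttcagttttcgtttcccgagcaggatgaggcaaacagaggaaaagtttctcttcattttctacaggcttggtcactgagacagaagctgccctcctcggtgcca
Rsad2 has 1 match, on the opposite strand, whose first base lies 120 bases before the transcription start. Isg15 has 3 overlapping matches within a run of 22 letters. Ifit1 has 2, both on the opposite strand and both within 104 bases of the start. In the Slfn5 window 1 match begins 155 bases upstream of the RefSeq start, followed by a run of A. GENCODE starts the gene at 82951349, before this window, so the sources differ on the start. Neither the Slfn1 nor the Ifi44 window holds these letters. The table of promoters matched 33 of the 41 genes by symbol. Of these, 17 (51.5%) had at least 1 match in a window, against 3.99% of all 27025 genes in the table. The letters TTCNNNGAA, the core of the gamma-activated site, which reads the same on both strands, occurred in 8 of 33 (24.2%) against 9.55% of all genes. A match describes the letters and is no evidence of binding. A window without a match is likewise no evidence that binding is absent, since only this spacing was searched.

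Levels spanned more than 2 orders of magnitude in the Treg gate. Ifi27l2a, which encodes a small interferon-induced membrane protein, led with 1419 CPM in fl/fl Treg and 1642 CPM in +/+ Treg, and had at least 1 UMI in 96.4% and 94.7% of cells. Next came Samhd1, which encodes a nucleotide hydrolase that starves retroviruses of DNA precursors, with 377 and 408 CPM. Slfn2, a Schlafen gene tied to T cell quiescence in the mouse, stood at 212 and 214 CPM. The restriction factor Bst2 (tetherin), which holds budding virus at the cell surface, had 202 CPM in fl/fl Treg and 209 CPM in +/+ Treg. At the other end, 4 genes stayed under 10 CPM in both Treg libraries and were not measured between them. These were Ifit3b (4.57 and 9.17 CPM), Oas2 (7.85 and 7.83), Oasl1 (9.13 and 9.69) and Cmpk2 (7.49 and 9.13). Rsad2 and Ifi44 reached 10 CPM in only 1 of the libraries.

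**Figure D1:**
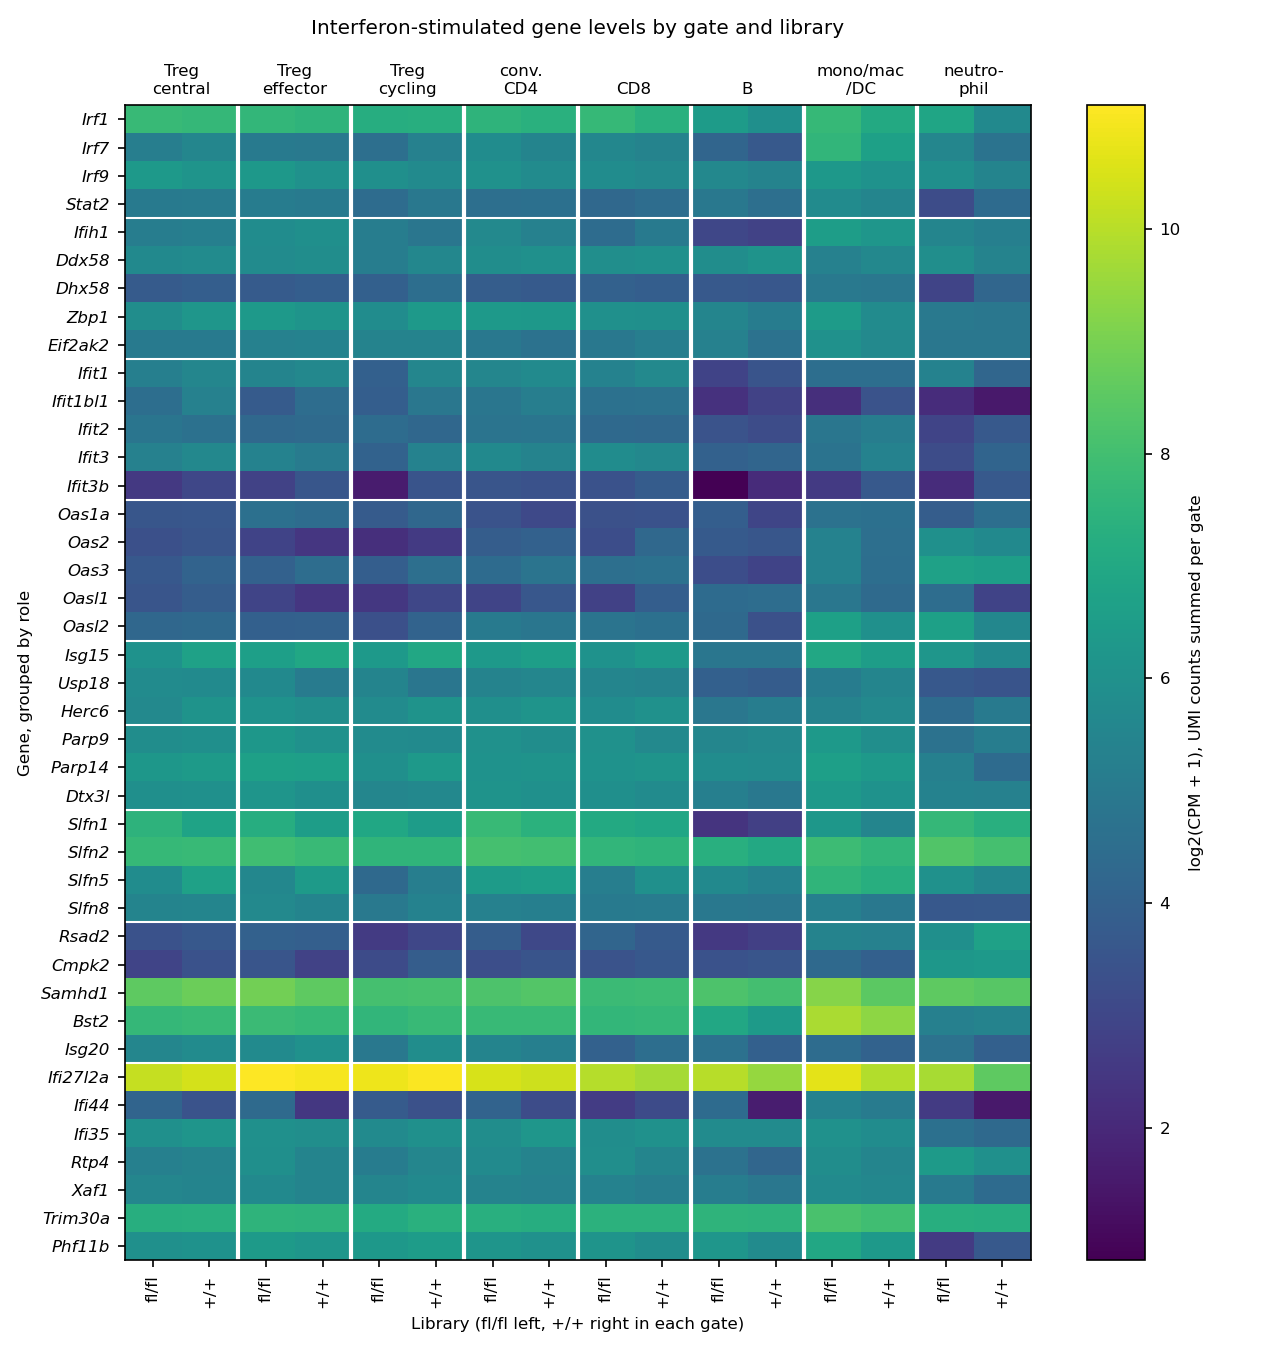
Level of each of the 41 genes as log2(CPM + 1), rows grouped by role, columns by gate with fl/fl left of +/+. Ifi27l2a is the brightest row in every gate shown, and Bst2 and Irf7 are brighter in the monocyte, macrophage or dendritic cell gate than in T cells.

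Between the libraries the Treg gate showed few differences in the 41 genes. Of 37 measured genes, 2 were called higher in fl/fl (Ifi44 and Slfn1) and 3 lower (Slfn5, Ifit1bl1 and Isg15), while over all 8042 measured genes 2.56% were called higher and 9.82% lower. The median log2 ratio of the 37 was −0.11, against −0.14 over all genes. Summed over the 41 genes, the level was 4012 CPM in fl/fl Treg and 4399 CPM in +/+ Treg. With the median gene-wise ratio in place of the UMI total as scaling factor (the median shift is −0.13 on the log2 scale), the split became 2 higher and 1 lower, with Slfn5 the gene still lower. Isg15 was then at −0.52 and Ifit1bl1 at −0.58, under the limit. Relative to that shift the set's median was 0.015.

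**Figure D2:**
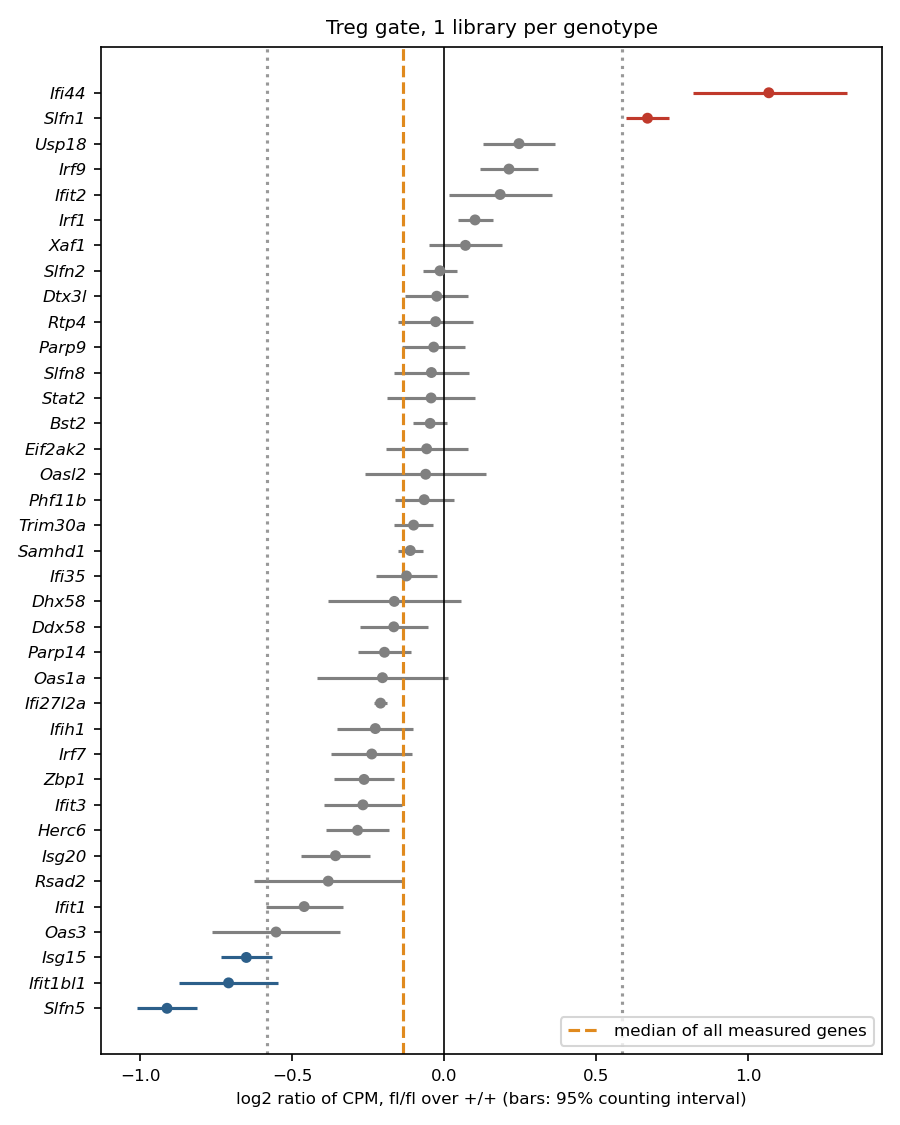
Log2 ratio of CPM in the Treg gate, fl/fl over +/+, for the 37 measured genes, with 95% counting intervals. Red points were called higher, blue points lower and grey points neither. Dotted lines mark 1.5-fold, and the dashed line is the median of all genes (−0.14).

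The transcription factors that carry the signal differed little between the libraries. Irf1, which is also induced by interferon gamma, had 203 CPM in fl/fl Treg and 189.5 CPM in +/+ Treg (log2 ratio 0.10, 0.04 to 0.16). For Irf9, the DNA-binding subunit of the complex with Stat2, the levels were 77.2 and 66.7 CPM (0.21, 0.12 to 0.31). Stat2 stood at 31.0 and 32.0 CPM (−0.04, −0.19 to 0.10). Irf7, the feed-forward factor, had 33.6 CPM in fl/fl Treg and 39.7 CPM in +/+ Treg (−0.24, −0.37 to −0.11). None of the 4 reached the limit.

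The 5 nucleic acid sensors all had values below 0, as did the median over all genes, and none was called. Zbp1, a sensor of Z-form nucleic acid that triggers necroptosis, had the highest level, 61.1 CPM in fl/fl Treg and 73.4 CPM in +/+ Treg (−0.26). Ifih1 (MDA5), which senses long double-stranded RNA, had 38.6 and 45.2 CPM (−0.23). The RNA helicases Ddx58 (RIG-I) and Dhx58 and the kinase Eif2ak2 (PKR) lay between −0.17 and −0.06.

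The IFIT genes, whose products bind viral RNA and block its translation, lie side by side on chromosome 19 between 34550694 and 34650009 (GRCm38). Ifit1bl1 had 19.4 CPM in fl/fl Treg and 31.8 CPM in +/+ Treg (−0.71, −0.87 to −0.55) and was called lower, with −0.48 when the interferon-high cells described further on were left out. Those cells were chosen by other IFIT genes and were a larger share of +/+ Treg, so such a rise is partly built in. Ifit1 had 34.8 and 47.9 CPM (−0.46, −0.59 to −0.34) and did not reach the limit. Ifit2 was the exception, with 24.8 CPM in fl/fl Treg and 21.8 CPM in +/+ Treg (0.18, 0.01 to 0.35). Ifit3 and Ifit3b, and Ifit1 and Ifit1bl1, are close paralogs, and reads that fit both copies cannot be assigned with certainty.

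The OAS genes encode synthetases of the second messenger that activates RNase L, and their relatives Oasl1 and Oasl2. Oas3 had 12.5 CPM in fl/fl Treg and 18.3 CPM in +/+ Treg (−0.55, −0.76 to −0.35) and did not quite reach the limit. Oas1a was at −0.20 and Oasl2 at −0.06, both with intervals that include 0.

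In the Isg15 system the modifier and its protease had values of opposite sign. Isg15 had 73.5 CPM in fl/fl Treg and 115 CPM in +/+ Treg (2011 and 2668 UMIs, log2 ratio −0.65, −0.74 to −0.57). In Treg cells with a Foxp3 UMI its log2 ratio was −0.21, and without interferon-high cells −0.33, both under the limit. Leaving out interferon-high cells takes a larger share of +/+ Treg, so the second rise is partly built in. Usp18, which removes Isg15 from proteins and also dampens receptor signalling, had 52.1 and 43.9 CPM (0.25, 0.13 to 0.36) and was not called. The Isg15 ligase Herc6 had 53.1 CPM in fl/fl Treg and 64.8 CPM in +/+ Treg (−0.29). Parp9, Parp14 and Dtx3l, of which Parp9 and Dtx3l form an ADP-ribosyl and ubiquitin transferase complex, lay between −0.20 and −0.03.

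The Schlafen genes sit in 1 cluster on chromosome 11 from 82951349 to 83122670 (GRCm38), and its outer members of the 4 had opposite signs. Slfn1, a growth-regulating gene of mouse T cells, had 163 CPM in fl/fl Treg and 103 CPM in +/+ Treg (4472 and 2377 UMIs, log2 ratio 0.67, 0.60 to 0.74). Slfn5 had 48.9 CPM in fl/fl Treg and 92.0 CPM in +/+ Treg (1338 and 2127 UMIs, −0.91, −1.01 to −0.81). Slfn2 and Slfn8, which lie between them, were at −0.01 and −0.04. Slfn1 had a UMI in 59.8% of fl/fl and 38.1% of +/+ Treg cells, at median depths of 6870 and 5535 UMIs, whereas Slfn5 had one in 24.1% and 30.3%. The share for Slfn5 was thus lower in the deeper library.

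Among the restriction factors, Rsad2 (viperin), which makes a chain-terminating nucleotide, was at 9.79 CPM in fl/fl Treg and 12.8 CPM in +/+ Treg (−0.38). Isg20, an RNA exonuclease, had 44.6 and 57.2 CPM (−0.36). Samhd1 and Bst2 were at −0.11 and −0.05. Of the other effectors, Ifi44 was the only one called: 16.6 CPM in fl/fl Treg and 7.92 CPM in +/+ Treg, from 454 and 183 UMIs (1.07, 0.82 to 1.32). Ifi27l2a was at −0.21, and Ifi35, Rtp4, Xaf1, Trim30a and Phf11b lay between −0.12 and 0.07.

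Across the Treg states, Slfn1 was higher and Slfn5 and Ifit1bl1 lower in fl/fl in each of central, effector and cycling cells, although Slfn1 did not reach 1.5-fold in cycling cells. In central, effector and cycling cells Slfn1 had log2 ratios of 0.67, 0.70 and 0.44, and Slfn5 −0.90, −0.86 and −0.93. For Ifi44 the ratio was 0.77 in central cells and 2.10 in effector cells (19.99 CPM in fl/fl and 4.66 CPM in +/+, from 86 and 36 UMIs). In cycling cells it was at 0.47 (−0.35 to 1.35) and was not called. Isg15 was at −0.65 in central, −0.32 in effector and −0.67 in cycling cells.

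Over the measured genes, 2 of 39 were called higher and 3 lower in the central state (background 2.35% and 8.89%), and 4 higher and 3 lower of 39 in the effector state (3.87% and 9.36%). The median log2 ratio of the set was −0.09 in the central state and 0.12 in the effector state. Over the alternatives it ran from −0.11 to 0.11 in central and from 0.07 to 0.20 in effector cells. The cycling state, with 290 fl/fl and 157 +/+ cells, had 1 gene called higher (Usp18, 0.65) and 10 lower of 38 (3.29% and 9.85%). The 10 were Irf7, Ifit1, Ifit1bl1, Ifit3, Ifit3b, Oas3, Oasl2, Isg15, Slfn5 and Isg20. Ifit1 had 14.5 CPM in fl/fl cycling cells and 45.0 CPM in +/+ cycling cells (57 and 83 UMIs, −1.63, −2.14 to −1.13). Of the +/+ cycling cells 7.14% were in the interferon-high class defined below, against 1.38% of fl/fl cycling cells. Without the interferon-high cells the median log2 ratio of the cycling state was −0.03, against −0.35 with them. Those cells were chosen by genes of the set and were a larger share of +/+, so a rise on leaving them out is partly built in.

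Outside the Treg gate the 5 genes differed in how far the library difference extended. Ifi44 was called higher in fl/fl conventional CD4 cells (16.3 CPM, against 8.25 CPM in +/+; 0.98, 0.38 to 1.59). In B cells it had 20.6 CPM in fl/fl and 2.17 CPM in +/+ (133 and 6 UMIs, 3.24, 2.08 to 4.71). In CD8 cells it was under 10 CPM in both libraries (5.24 and 8.11 CPM) and was not measured. Slfn5 was called lower in fl/fl CD8 cells (36.3 CPM, against 61.4 CPM in +/+; −0.76, −1.16 to −0.36). In conventional CD4 cells Slfn5 stood at 86.2 CPM in fl/fl and 93.6 CPM in +/+ (−0.12, −0.33 to 0.09), an interval that does not overlap the one of the Treg gate. Within the fl/fl library Slfn5 was thus at −0.82 in Treg over conventional CD4 cells, and within the +/+ library at −0.02. Slfn1 was 0.34 (0.20 to 0.48) in conventional CD4 and 0.12 (−0.12 to 0.37) in CD8 cells, under the 1.5-fold limit in both. Isg15 was at −0.18 in conventional CD4, −0.26 in CD8 and 0.00 in B cells, each with an interval that includes 0. Ifit1bl1 was at −0.35 (−0.70 to 0.00) in conventional CD4 and −0.05 (−0.61 to 0.51) in CD8 cells, and was not measured in B cells or in the monocyte, macrophage or dendritic cell gate. The conventional CD4 gates can hold Treg cells without captured Foxp3 and Ikzf2. They also differed in make-up, with effector markers summing to 1132 CPM in fl/fl and 639 CPM in +/+ and cycling markers to 93.1 and 170.3 CPM. The part of this in the values was not tested.

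**Figure D3:**
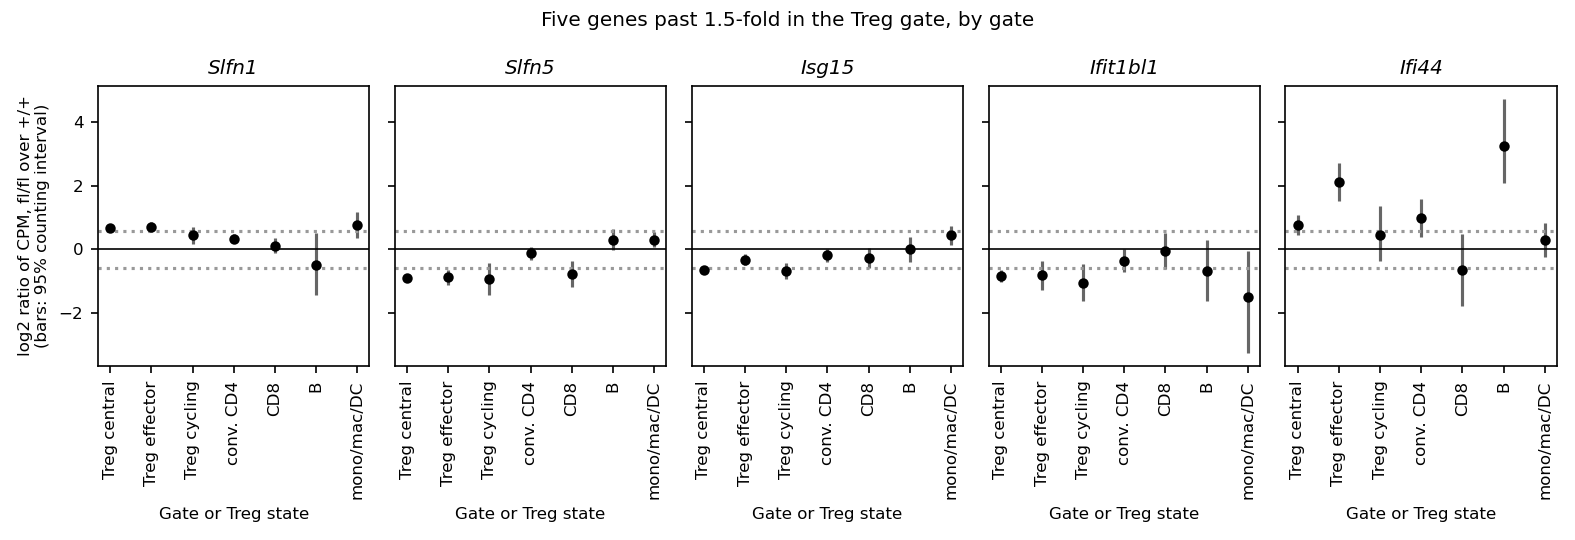
Log2 ratio of CPM, fl/fl over +/+, of the 5 genes past 1.5-fold in the Treg gate, in the 3 Treg states and 4 other gates, with 95% counting intervals. Genes under 10 CPM in both libraries are drawn too (Slfn1 in B, Ifi44 in CD8, and Ifit1bl1 in B and mono/mac/DC). Dotted lines mark 1.5-fold; Slfn5 is at about −0.9 in all 3 Treg states and −0.12 in conventional CD4 cells, and Ifi44 is highest in B cells at 3.24.

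For all measured genes of the set, conventional CD4 cells had 2 called higher in fl/fl (Rsad2 and Ifi44) and 1 lower (Oasl1) of 41, over a background of 2.44% and 3.16%. CD8 cells had 0 called higher and 4 lower (Ifih1, Oas2, Oasl1 and Slfn5) of 39 (2.31% and 3.25%). In B cells 5 of 34 were called higher (Eif2ak2, Oas1a, Oasl2, Isg20 and Ifi44) and 0 lower (1.96% and 2.9%). The median log2 ratio was 0.11 in conventional CD4, −0.02 in CD8 and 0.23 in B cells, against −0.03, −0.04 and −0.08 over all genes. In the B gate the plasma cell markers Jchain, Sdc1 and Xbp1 summed to 765 CPM in fl/fl and 47.5 CPM in +/+, with Jchain at 700.3 and 12.7 CPM. The 4 hemoglobin genes summed to 25.5 and 369.6 CPM there. Their part in the B cell values was not tested.

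The monocyte, macrophage or dendritic cell gate had a median log2 ratio of 0.31 over its measured genes of the set, against −0.06 over all genes. There 10 of 40 genes were called higher in fl/fl (Irf1, Irf7, Zbp1, Oas2, Oas3, Oasl2, Slfn1, Samhd1, Ifi27l2a and Phf11b) and 1 lower (Ifit3), over a background of 3.82% and 8.09%. Irf7 had 190.5 CPM in the fl/fl gate and 100.4 CPM in the +/+ gate (266 and 211 UMIs, 0.92, 0.66 to 1.19). Ifi27l2a had 1648 CPM in fl/fl and 972 CPM in +/+ (0.76, 0.68 to 0.85). All 4 plasmacytoid dendritic cell markers were higher in the fl/fl gate and summed to 2151 CPM, against 1544 CPM in +/+. Siglech had 231 and 153 CPM there, with a UMI in 24 of 173 fl/fl and 26 of 221 +/+ cells. One of the 4 markers is Bst2, itself in the set, at 887 and 647 CPM. Plasma cell markers in the gate summed to 1595 CPM in fl/fl and 175 CPM in +/+, hemoglobin transcripts to 4846 and 1165 CPM, and the monocyte gene Ly6c2 had 1233 and 773 CPM. The myeloid genes Adgre1 (112 CPM in fl/fl and 151 CPM in +/+) and Lyz2 (5358 and 6004 CPM) ran the other way. A different mix of cells and a different level per cell cannot be told apart in these sums.

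Within each library, the level of the set also depended on the cell. Ifi27l2a in the fl/fl library stood at 2188 CPM in effector Treg and 1157 CPM in central Treg (0.92), and in the +/+ library at 1966 and 1383 CPM (0.51). Ifih1 was called higher in effector than central Treg in both libraries (0.63 in fl/fl and 0.71 in +/+), and so was Oas1a (1.11 and 0.92). Lower in effector than central Treg in both were Ifit1bl1 (−0.83 and −0.86) and Oasl1 (−0.66 and −1.56). That is 2 higher and 2 lower of 37, where 9.07% and 1.85% of all genes were called so in both libraries. Cycling over central Treg gave 1 higher (Ifi27l2a) and 2 lower (Slfn5 and Oasl1) of 36 in both libraries, over a background of 12.5% and 2.44%. Slfn5 showed that difference most, with 19.1 CPM in cycling and 56.2 CPM in central Treg of the fl/fl library (−1.55) and 36.3 and 104.6 CPM in the +/+ library (−1.53).

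The Treg and conventional CD4 gates differed in few of the genes, and the latter can hold Treg cells without captured Foxp3 and Ikzf2. In both libraries 0 of 37 genes were called higher in Treg and 2 lower, Oas2 and Oasl2, over a background of 3.84% and 1.8%. In fl/fl cells Oasl2 had 16.3 CPM in Treg and 31.3 CPM in conventional CD4, and in +/+ cells 17.0 and 27.8 CPM. CD8 cells had 0 higher and 2 lower than Treg in both libraries (Samhd1 and Isg20), with 4.51% and 6.61% as background. B cells had 16 of 37 genes called lower than in Treg in both libraries and 1 higher, Oasl1, against 13.2% lower and 13.7% higher over all genes. Ifih1 was among the 16, with 7.11 CPM in B cells and 38.6 CPM in Treg of the fl/fl library (−2.44), and 6.16 and 45.2 CPM in the +/+ library (−2.88). In the monocyte, macrophage or dendritic cell gate 12 of 40 were called higher than in Treg and 4 lower in both libraries (24.0% and 14.0%), and among the higher ones Bst2 had 887 and 202 CPM in fl/fl and 647 and 209 CPM in +/+.

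The transcripts were not spread evenly over cells. A small class of Treg cells, defined below, held many of them. At equal depth this class was smaller in the fl/fl library over the whole Treg gate. To see it, each cell was thinned to 2500 UMIs, and cells with at least 2 UMIs of Ifit1, Ifit3 and Ifit3b together were called interferon-high. They were 117 of 3552 fl/fl Treg cells (3.29%, 2.73 to 3.93%) and 191 of 3662 +/+ Treg cells (5.22%, 4.52 to 5.99%). Without thinning the shares were 9.74% and 9.52%, at median depths of 6870 and 5535 UMIs. At a limit of 3 UMIs they were 1.49% in fl/fl and 3.11% in +/+. Among Treg cells with a Foxp3 UMI the shares at the limit of 2 UMIs were closer, 3.54% in fl/fl and 4.19% in +/+. No interval is given for these fewer cells. Intervals over cells cover counting error only, so with 1 library per genotype neither set of cells shows a genotype difference. Cells with exactly 1 such UMI ran the other way, 308 of the fl/fl cells (8.67%) and 242 of the +/+ cells (6.61%). In the B gate, at the same depth, 0.836% of fl/fl and 1.35% of +/+ cells passed, at unthinned median depths of 4352 and 4812 UMIs, and the Treg shares were above these.

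Central Treg had shares of 3.50% in fl/fl and 5.46% in +/+, and effector Treg 3.38% and 4.42%. Conventional CD4 cells had 4.28% (2.93 to 6.02%) in fl/fl and 5.70% (4.16 to 7.61%) in +/+, and CD8 cells 4.11% and 5.24%, with intervals that overlap between the libraries. Cycling Treg had 4 of 289 cells in fl/fl (1.38%, 0.378 to 3.51%), near the share in B cells, and 11 of 154 in +/+ (7.14%, 3.62 to 12.4%).

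The sum per thinned Treg cell over 40 of the genes, all but Ifi27l2a, needs no choice of cells. The median was 6 UMIs per fl/fl Treg cell and 5 UMIs per +/+ Treg cell, while the 99th percentile was 26 and 42 and the highest cell 73 and 111 UMIs. At least 20 UMIs were found in 2.28% of fl/fl Treg cells (1.81 to 2.83%) and 5.32% of +/+ Treg cells (4.62 to 6.10%). At least 30 UMIs were found in 0.704% and 2.79%. The top 5% of cells held 16.8% of these UMIs in fl/fl and 24.6% in +/+. In conventional CD4 cells 2.90% of fl/fl cells (1.80 to 4.40%) and 5.57% of +/+ cells (4.04 to 7.46%) had at least 20 UMIs.

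**Figure D4:**
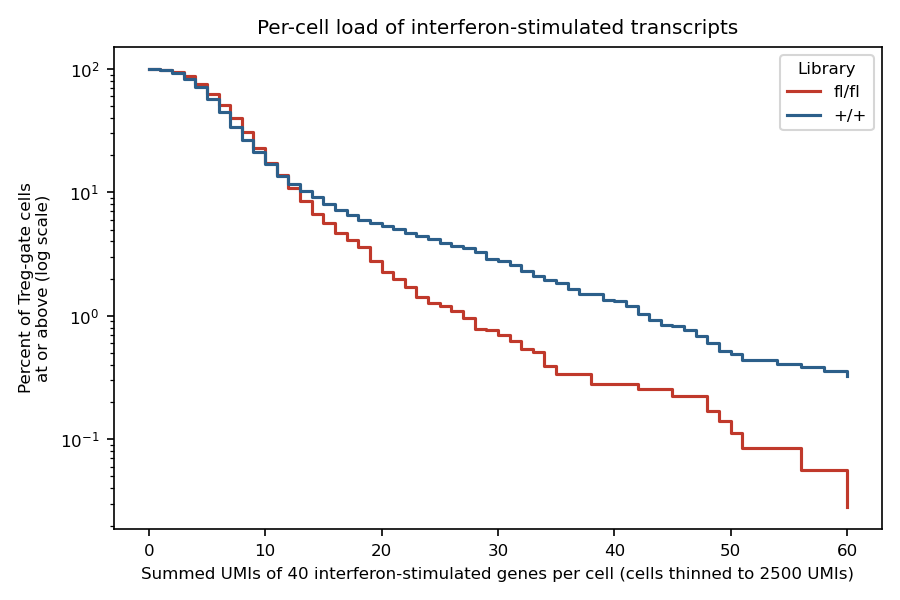
Share of Treg-gate cells, on a log scale, with at least the number of UMIs on the horizontal axis, summed over 40 genes (without Ifi27l2a) in cells thinned to 2500 UMIs. The fl/fl line lies slightly above the +/+ line at low sums and below it from 12 UMIs on, with 2.28% against 5.32% of cells at 20 UMIs.

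The 38 genes that did not enter the choice were then compared between interferon-high cells and cells with 0 UMIs of the 3 IFIT genes. In fl/fl Treg 36 of 38 were called higher in the interferon-high cells and 0 lower, and in +/+ Treg 37 of 38 and 0. The background was 3.83% higher and 2.79% lower in fl/fl, and 4.5% and 3.87% in +/+. The median log2 ratio was 1.93 in fl/fl and 2.59 in +/+, against −0.05 and −0.09 over all genes. The unthinned depth of the high cells was not larger, with medians of 6459 UMIs in high and 6909 in zero cells of fl/fl, and 5271 and 5556 in +/+.

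Rsad2 had the largest ratio in both libraries. In fl/fl it stood at 126 CPM in interferon-high and 5.76 CPM in zero cells (4.46, 3.79 to 5.12), and in +/+ at 155 and 4.46 CPM (5.12, 4.53 to 5.74). Cmpk2, its neighbour on chromosome 12 and a nucleotide kinase, followed by the mean of both libraries at 3.67 in fl/fl and 4.45 in +/+, then Ifi44 at 3.04 and 4.79, Isg15 at 3.12 and 3.71, and Oasl2 at 2.88 and 3.49. In +/+ alone Ifi44 exceeded Cmpk2, and Oasl1 (3.86) and Oas2 (3.76) exceeded Isg15. By the same mean the smallest ratios belonged to Irf1 (0.38 in fl/fl and 0.43 in +/+), Slfn2 (0.63 and 0.77), Irf9 (0.88 and 0.94), Ifi27l2a (0.96 and 1.44) and Samhd1 (0.88 and 1.53). In fl/fl alone Ifit2 (0.70) and Slfn1 (0.85) were lower than Irf9. Irf1 was called in neither library, and Ifit2 not in fl/fl. Irf7 was at 2.14 and 3.08 and Stat2 at 1.52 and 2.58.

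**Figure D5:**
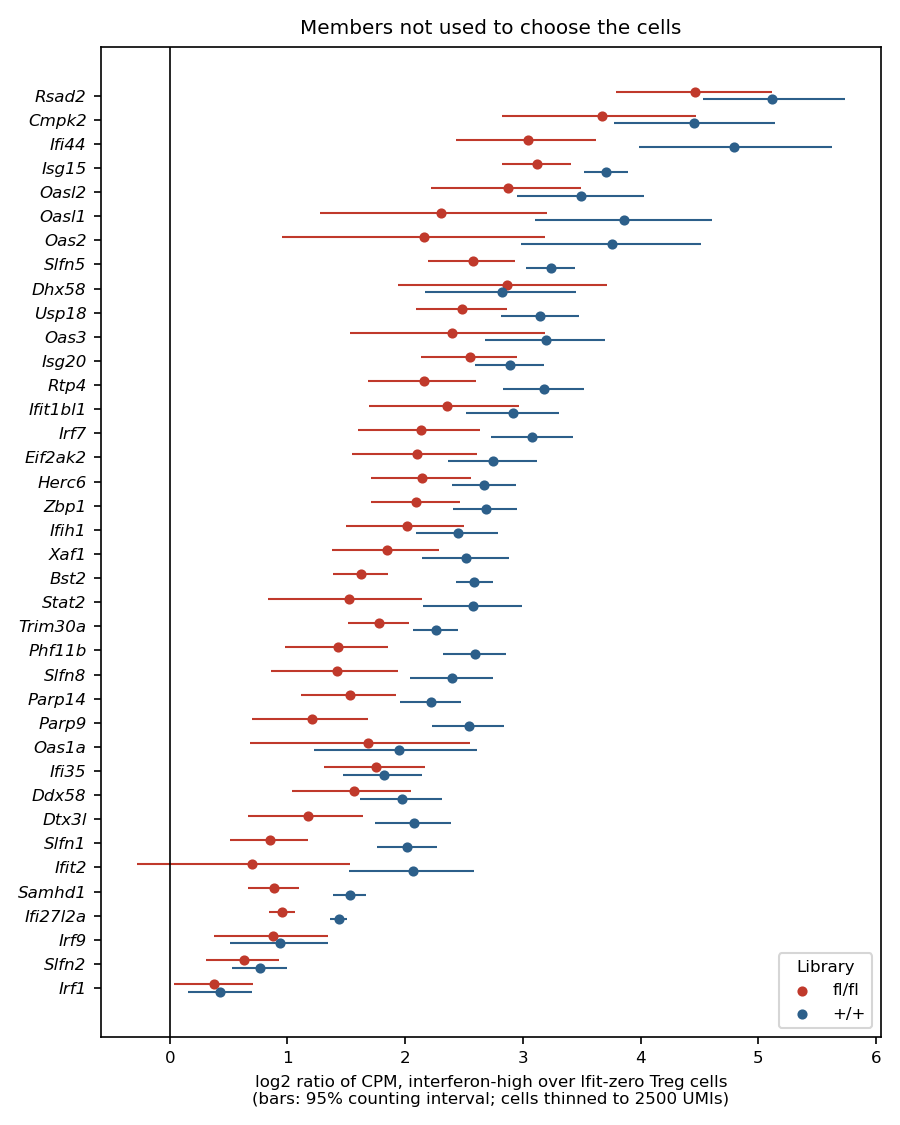
Log2 ratio of CPM, interferon-high over IFIT-zero Treg cells, for the 38 genes not used to choose the cells, with 95% counting intervals; red is fl/fl and blue +/+. Rsad2 is at the top (4.46 and 5.12) and Irf1 at the bottom (0.38 and 0.43), and the +/+ point lies to the right of the fl/fl point for all but Dhx58.

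In conventional CD4 cells the counts were 34 of 38 higher and 0 lower in fl/fl (background 3.36% and 1.23%) and 36 higher and 0 lower in +/+ (3.61% and 1.75%), with medians of 2.33 and 2.49. The 14 genes with the response element letters that did not enter the choice had a median ratio of 1.89 in fl/fl and 2.59 in +/+, and the 16 matched genes without them 1.80 and 2.30.

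The libraries were also compared within each kind of Treg cell. The cells were chosen by transcripts of the interferon response itself, so the comparison is not independent of the choice. Of the 117 fl/fl high cells 53 had at least 3 UMIs of the 3 IFIT genes, against 114 of the 191 +/+ high cells, so the fl/fl class lay nearer to its limit and the values are a description only. Among interferon-high cells 0 of 38 genes were called higher in fl/fl and 16 lower, with a median of −0.50 and 35 of 38 below 0, where all genes had a median of −0.14 and 2.17% and 6.18% called. Isg15 had 448 CPM in fl/fl and 869 CPM in +/+ high cells (131 and 415 UMIs, −0.96, −1.25 to −0.67). Slfn5 had 263 and 626 CPM (−1.25, −1.63 to −0.88), and Bst2 568 and 934 CPM (−0.72, −0.98 to −0.46). In IFIT-zero cells 3 of 33 measured genes were called higher in fl/fl (Usp18, Slfn1 and Ifi44) and 1 lower (Slfn5), with a median of 0.14 and 20 above and 13 below 0, against a median of −0.15 over all genes and a background of 2.73% and 11.8%. Ifi44 there had 13.7 CPM in fl/fl and 2.73 CPM in +/+ (107 and 22 UMIs, 2.33, 1.66 to 3.06). Slfn1 had 157 and 83.9 CPM (0.91), Usp18 42.7 and 28.1 CPM (0.60), and Slfn5 44.3 and 66.4 CPM (−0.59). Slfn5 was thus called lower in both kinds of cell, though in IFIT-zero cells it only just reached the 1.5-fold limit.

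A second choice of cells, made after these values were seen, used 5 other genes (Oasl2, Oas3, Rtp4, Irf7 and Herc6, at least 3 UMIs in all). Most of its cells differed from those of the first choice, with 28 fl/fl and 68 +/+ cells in both, which are 23.9% and 35.6% of the first. It took 71 of 3552 fl/fl Treg cells (2.00%, 1.56 to 2.51%) and 140 of 3662 +/+ Treg cells (3.82%, 3.23 to 4.50%). Among the 36 genes it did not use, 0 were called higher and 10 lower in the fl/fl high cells, with a median of −0.47 (background 2.34% and 3.27%). In the zero cells 4 of 30 were called higher and 0 lower, with a median of 0.11 (2.82% and 12.2%). Slfn5 was at −0.54 in these zero cells and was not called. The 5 genes of this choice were themselves below 0 in the interferon-high cells of the first choice. There Oasl2 was at −0.13, Oas3 at −0.99, Rtp4 at −0.50, Irf7 at −0.77 and Herc6 at −0.79, with Oas3, Irf7 and Herc6 called lower. A smaller fl/fl class by these genes is thus not independent of the first values, and it too is a description only.

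The share of each gene's Treg UMIs that lay in interferon-high cells differed accordingly. Its median over the 38 genes was 11.0% in fl/fl and 23.3% in +/+. For Rsad2 it was 37.4% and 60.2%, for Isg15 20.9% and 38.3%, and for Irf1 4.13% and 6.84%, close to the share of cells in the class.

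Upstream of the set, few type I interferon transcripts were captured. The 18 alpha, beta and related genes had 32 UMIs in all fl/fl single cells and 20 in all +/+ single cells, of which Ifnk gave 24 and 16 and Ifnb1 6 and 2. Over 86 genes of the pathway and of other interferon-induced families, 52 were measured in the Treg gate, of which 4 were called higher in fl/fl and 8 lower, over a background of 2.56% and 9.82%. The receptor subunit Ifnar1 had 74.2 CPM in fl/fl Treg and 117 CPM in +/+ Treg (−0.66, −0.74 to −0.57) and was called lower, while its partner Ifnar2 had 80.1 and 93.7 CPM (−0.23). Tyk2, the kinase bound to Ifnar1, was lower too, with 21.8 and 34.8 CPM (−0.68). Among 7 measured negative regulators 2 were called lower, the cytokine signalling inhibitor Socs3 (27.7 and 60.3 CPM, −1.12) and the phosphatase Ptpn6 (39.7 and 79.0 CPM, −0.99), and 0 higher, over the same background. Ifng (−0.67) and the kinase Ikbke (−0.71), which acts below nucleic acid sensors, were also called lower.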

How the data were processed

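Splenic cells had been run on the 10x Chromium 3' v3.1 kit, 1 library per genotype, per the labels' protocols. The deposited values are raw UMI counts per gene and barcode, whole numbers in both libraries. Per the submitters' processing notes fastp, Cell Ranger 7.1.0 and Seurat 4.1.1 were used with builds mm10 and GRCm38, and which step made which file is not given. The deposited barcodes numbered 8784 (fl/fl, 63989234 UMIs) and 7947 (+/+, 53680614 UMIs).

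From these counts, barcodes with at least 500 genes and at most 10% mitochondrial UMIs were kept (8634 and 7790). Doublets were scored within each library with Scrublet in scanpy 1.11.5 at an expected rate of 6%. Its automatic threshold called 2 and 0 barcodes, so a threshold by Otsu's method on the simulated scores was chosen after that output was seen, and it left out 193 (2.24%) and 137 (1.76%). Gates were set on raw marker UMIs per cell. T cells needed at least 3 UMIs of Cd3d, Cd3e, Cd3g and Trac, at most 1 of B cell and 2 of myeloid markers. CD8 cells needed 2 Cd8 UMIs, B cells 3 UMIs of B cell markers, the myeloid gate 5 of Lyz2, Csf1r, Cst3 and Cd68, neutrophils 50 of S100a8 and S100a9, and cycling Treg 2 of 5 cycling markers. T cells in no finer gate numbered 1543 and 1374. Counts were summed per gate, and thinned cells were drawn to 2500 UMIs with a fixed seed. CPM intervals were exact Poisson, ratio intervals exact conditional binomial and shares exact Clopper-Pearson, each at 95%. The calling code was tested on simulated data. Coordinates are GENCODE's and RefSeq's on GRCm38. Alternatives changed the scaling, thinning, CPM floor, fold limit, doublet removal, mitochondrial limit, Treg gate and weighting of states. Tools were Python 3.11.15, numpy 2.4.6, pandas 2.3.3 and scipy 1.17.1.

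Genes given in full were those called between Treg libraries, the highest in each role, Irf1, Irf7, Irf9 and Stat2, the 5 largest and 5 smallest ratios in interferon-high cells, and for the pathway the called genes with Ifnar1 and Ifnar2. A further gene of that rule is not reported here. Others named were chosen after their values were seen. The genes, lists and gates were chosen with earlier results of these data known.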

Additional observations from a re-analysis of the deposited data

Results flagged for a closer look

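In 12 genes the fl/fl over +/+ log2 ratio of another gate lay on the opposite side of 0 from the Treg gate, with both counting intervals excluding 0. The same count was not made over all genes, so it is not shown to be a trait of this set. With 1 library per genotype the difference between gates was not tested. Ifi27l2a was at −0.21 in Treg, but at 0.17 in conventional CD4, 0.24 in CD8, 0.52 in B cells and 0.76 in the monocyte, macrophage or dendritic cell gate. In conventional CD4 cells Irf7 was at 0.34 (−0.24 in Treg), Ifih1 at 0.32 (−0.23), Ifit3 at 0.30 (−0.27) and Rsad2 at 0.85 (−0.38). In B cells Zbp1 was at 0.36 (−0.26), Samhd1 at 0.19 (−0.11) and Isg20 at 0.73 (−0.36). In the monocyte, macrophage or dendritic cell gate Irf7 was at 0.92, Zbp1 at 0.69, Oas3 at 0.90 (−0.55), Isg15 at 0.44 (−0.65), Slfn5 at 0.31 (−0.91), Samhd1 at 0.74 and Trim30a at 0.20 (−0.10). The Treg states differed as well. In effector Treg Ifi27l2a was at 0.15, Samhd1 at 0.36 and Zbp1 at 0.22, with intervals above 0. In central Treg these 3 were at −0.26, −0.25 and −0.36. Isg15, Slfn5, Oas3 and Isg20 were below 0 in effector Treg too, at −0.32, −0.86, −0.50 and −0.26. The rest of the 12 had effector intervals that include 0.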

How the results depend on the processing

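No paired analysis was possible because the genotypes share a single replicate number, and no library could be left out. The median log2 ratio of the set in the Treg gate, −0.11, turned to 0.015 with the median gene-wise ratio as scaling factor, 0.057 without interferon-high cells and 0.016 in cells with a Foxp3 UMI. The median of the central state turned to 0.11 without interferon-high cells. Those cells were chosen by genes of the set and were a larger share of +/+, so a rise on leaving them out is partly built in. The 3 genes called lower in Treg became 1 under that scaling and 1 without interferon-high cells, 7 at a smaller fold limit and 0 at 2-fold. The 2 called higher became 1 at 20 CPM and 1 at 2-fold. Over 8 alternatives Slfn1 lay between 0.61 and 0.85, Slfn5 between −0.93 and −0.69, Ifi44 between 1.06 and 1.68, Ifit1bl1 between −1.14 and −0.48 and Isg15 between −0.74 and −0.21, the last in cells with a Foxp3 UMI. The share of interferon-high Treg cells was 12.0% in fl/fl and 11.8% in +/+ at 1 UMI, 1.49% and 3.11% at 3 UMIs, 9.74% and 9.52% unthinned, 5.83% and 7.18% at 4000 UMIs, and 2.00% and 3.82% by the second choice of genes. In cells with a Foxp3 UMI the shares were 3.54% and 4.19%, given without intervals. The order of the libraries was thus the other way at 1 UMI and unthinned. The cause of these shifts was not tested. Intervals cover counting error only, and gates in single cells miss cells whose markers were not captured.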

Other observations

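Interferon-inducible GTPases, mostly targets of interferon gamma that attack the membranes around intracellular pathogens, mostly had values above 0 between the Treg libraries. Of 15 measured, 2 were called higher in fl/fl and 0 lower, over a background of 2.56% and 9.82%, with 12 above 0 and a median log2 ratio of 0.15, against −0.14 over all genes. Irgm2 had 66.5 CPM in fl/fl Treg and 37.4 CPM in +/+ Treg (0.83, 0.71 to 0.95), and Iigp1 123 and 74.1 CPM (0.73, 0.65 to 0.82). The ligand Ifng had 23.1 CPM in fl/fl Treg and 36.8 CPM in +/+ Treg. In the p200 family, which includes the DNA sensor Aim2 and whose members share sequence, 2 of 7 were called higher and 2 lower, over the same background. Ifi214 had 59.6 and 34.4 CPM (0.79) and Ifi213 91.2 and 60.5 CPM (0.59), while Ifi208 had 13.1 CPM in fl/fl Treg and 59.2 CPM in +/+ Treg (−2.17, −2.34 to −2.00) and Aim2 46.2 and 80.3 CPM (−0.80). Reads shared between these paralogs cannot be assigned with certainty. In interferon-high over IFIT-zero Treg cells 12 of 17 GTPases were called higher in fl/fl (background 3.83%) and 17 of 17 in +/+ (4.5%), with medians of 1.12 and 1.86.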
